A study of Mus musculus with 4 samples.

Results

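The primary cilium is a single antenna on the surface of most epithelial cells, built on a centriole and kept apart from the rest of the cell by a gate called the transition zone. Intraflagellar transport (IFT) trains carry its parts outward on kinesin motors and inward on a dynein motor, and the BBSome, a coat named after Bardet-Biedl syndrome, carries membrane proteins. In the liver, bile duct cells (cholangiocytes) bear a primary cilium that senses bile, whereas mature hepatocytes are generally described as lacking one, and mutations in many ciliary genes cause cysts of bile ducts and kidney tubules.

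Described here are 47 genes of the primary cilium and of polycystic disease, named by symbol and all found among the 24493 gene symbols of the expression table. They comprise 11 subunits of the IFT-B train, 3 of the IFT-A train, 10 BBSome and Bardet-Biedl genes, 5 ciliary motor genes, 11 transition zone genes, 3 genes of ciliary membrane traffic and 4 polycystic disease genes. RNA sequencing was done on 4 cultures of C57BL/6 mouse liver cells that received no treatment. The Hep_3D group (n = 2) held hepatocytes in 3D culture and the Bil_2D group (n = 2) held biliary cells derived from hepatocytes in 2D culture. Clones 15C7 (replicate 1) and 19H5 (replicate 2) each gave a library in each state, so culture format and cell state cannot be told apart, and each group is limited to 2 clones. The sources used here do not say how the biliary cells were derived or whether the clones came from different animals, so each p-value reflects only how far these libraries differ.

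Values are TPM, each gene's length-corrected share of its library. Each library summed to 1000000, so sequencing depth is unknown and no counting error can be given. The 50 most abundant genes held 46.6% and 48.4% of TPM in the Hep_3D libraries and 22.4% and 24.8% in the Bil_2D libraries. A larger share of some genes lowers the TPM of all others. The median difference of all 12336 genes tested, Hep_3D minus Bil_2D on log2(TPM + 1), was -0.73. Each difference is therefore also given on scaled TPM, which is TPM divided by a median-of-ratios size factor per library, and there the median of all genes was -0.02. Of 14 hepatocyte markers 11 rose in Hep_3D on both scales, with summed levels of 89880 and 80650 TPM in Hep_3D, against 2362 and 444.5 TPM in Bil_2D. Among the 11, Cps1, Arg1, Hpd and Tat reached 1 TPM, the level needed for testing, in Hep_3D alone, which bears on their being higher. Of 12 cholangiocyte markers 8 were tested, and 1 rose and 4 fell on TPM, while 2 rose and 2 fell on scaled TPM. Spp1 rose on both scales, with 13093 and 9284 TPM in Hep_3D, against 4176 and 6092 TPM in Bil_2D (adjusted p = 0.0611 on TPM with clone as a replicate block in limma). Krt19 stood at 1.12 and 15.9 TPM in Hep_3D, against 752 and 1615 TPM in Bil_2D, while Cftr and Epcam were at most 0.0797 and 2.59 TPM in any library. Fibroblast collagens Col1a1, Col1a2 and Col3a1 were at most 1.17, 0.119 and 0.151 TPM, and among the 12 fibroblast and stellate markers Dcn alone stood high, at 178 TPM in Hep_3D replicate 1 and 2.79 TPM in replicate 2, against 2.38 and 0 TPM in Bil_2D.

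As a group, the cilium genes took a smaller share of all transcripts in Hep_3D, by about as much as the average gene. Their summed level was 462.7 and 497.3 TPM in Hep_3D replicates 1 and 2, against 846.9 and 858.6 TPM in Bil_2D replicates 1 and 2, a ratio of 0.546 in clone 15C7 and 0.579 in clone 19H5. After scaling by size factors those ratios were 0.971 and 1.01. Summed by group they were 1.34 and 1.23 for IFT-B and 0.572 and 0.838 for the polycystic genes. Such sums weigh abundant genes most, so the IFT-B ratio leans on Ift20 and the polycystic ratio on Bicc1. Scaled levels of Ift20 were 140 and 126 in Hep_3D, against 82.8 and 77.3 in Bil_2D. Bicc1 stood at 72.6 and 120, against 171 and 160, while Pkd1 and Pkd2 were higher in Hep_3D on that scale. Few genes were called apart from the shared shift: Pkhd1 and Cc2d2a were lower in Hep_3D on both scales, and Ift20, Pkd1 and Pkd2 were higher in Hep_3D on scaled TPM only. In bulk RNA, fewer cells of a type and less RNA per cell cannot be told apart.

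Of the 47 genes, 44 were tested with limma because 2 or more libraries reached 1 TPM, and Kif17, Dync2h1 and Nphp4 did not. On the TPM scale 24 of the 44 were lower in Hep_3D at an adjusted p under 0.05 (54.5%), beside 51.9% of all genes tested. None was higher, beside 6.8% of all genes, and 0 were higher at an unadjusted p under 0.05, beside 961 of all 12336 genes. On scaled TPM 3 were higher (6.82%) and 2 lower (4.55%), beside 11.9% and 9.54% of all genes. The median log2 difference of the 44 was -0.72 on the TPM scale and -0.02 on scaled TPM, close to -0.73 and -0.02 for all genes. Groups that did not overlap were counted too. On TPM, 1 gene was higher and 34 lower in both Hep_3D libraries than in both Bil_2D libraries, beside 11.1% and 71.9% of all genes, and on scaled TPM 14 were higher and 16 lower, beside 33.6% and 34.7%. Bbs12 and Pkhd1 reached the filter through Bil_2D alone, which bears on their being lower. These shares lie near or under the background, so the count of lower genes on the TPM scale is not a result about the cilium.

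Fewer genes were called with any library left out, where a group has only 1 library and the test is weaker. Fewer calls there do not by themselves show that a call rested on a single library. Over the leave-outs the log2 difference of Ift80 on the TPM scale ran from -0.95 to -0.93. That of Ift52 ran from -1.49 to -0.73. The 24 lower genes on the TPM scale became 10 without Hep_3D replicate 1, 9 without Hep_3D replicate 2, 5 without Bil_2D replicate 1 and 4 without Bil_2D replicate 2. Cc2d2a, Pkhd1 and Tulp3 were called in each of these 4 leave-outs, and 11 of the 24 in none. On scaled TPM the 3 higher and 2 lower genes were called in none of them. With clone as a replicate block, 2 were higher and 4 lower on that scale.

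**Figure D1:**
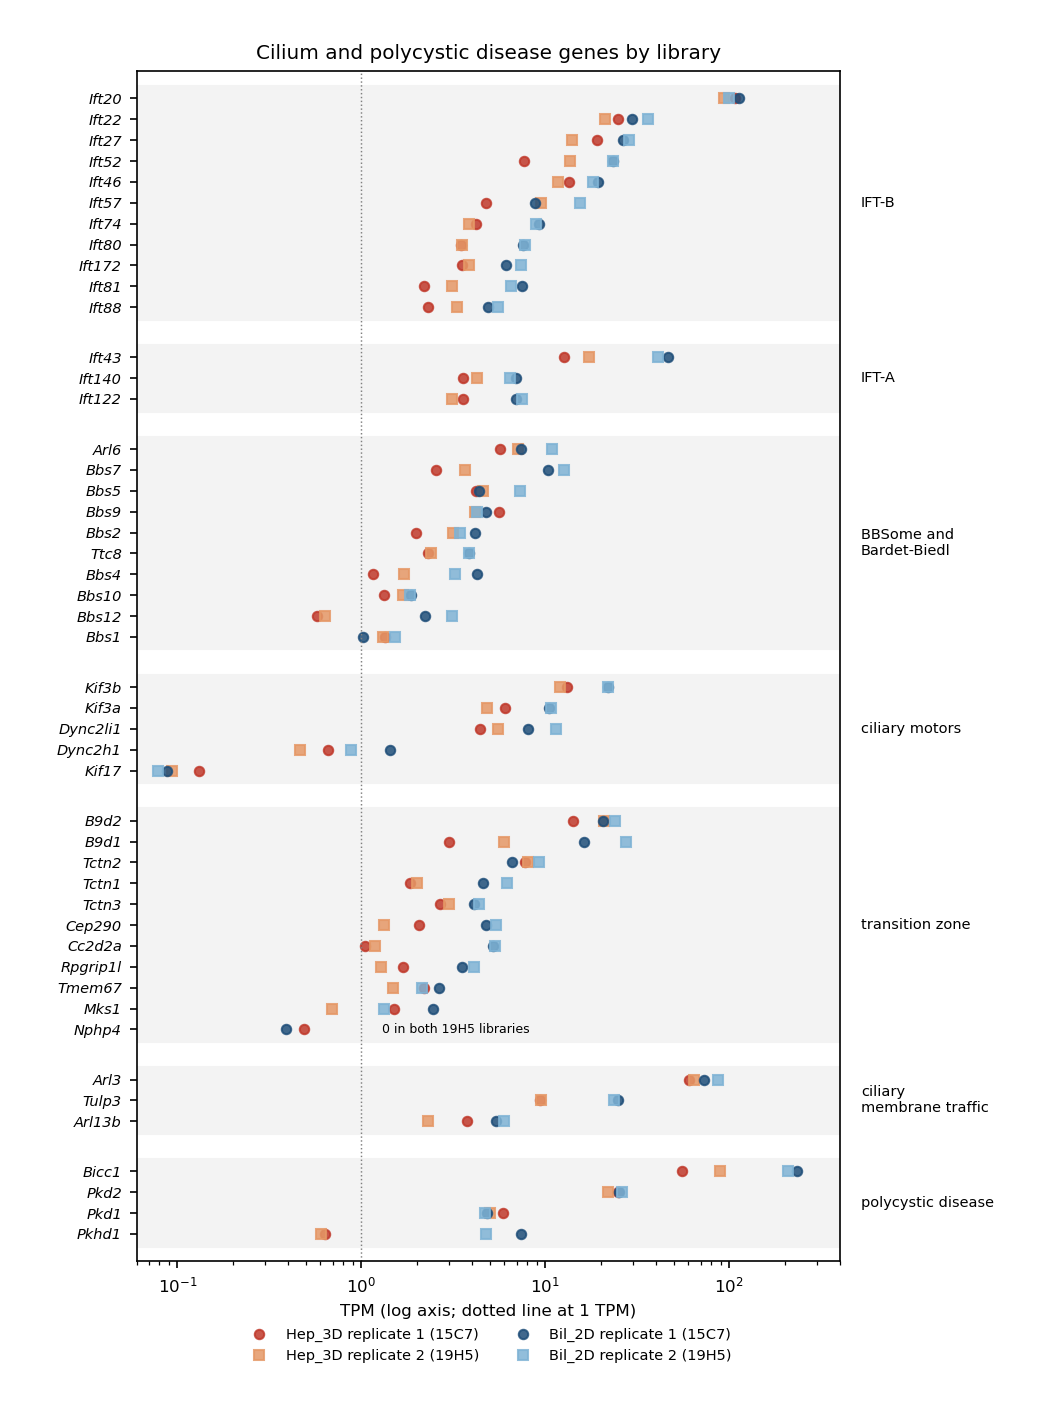
Level of each of the 47 genes in each library, in TPM on a log axis, grouped by role. Bicc1, Ift20 and Arl3 stood highest, and 3 genes (Kif17, Dync2h1, Nphp4) did not reach 1 TPM in 2 libraries; the zeros of Nphp4 in clone 19H5 are not drawn. Most genes had both Hep_3D points left of both Bil_2D points.

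**Figure D2:**
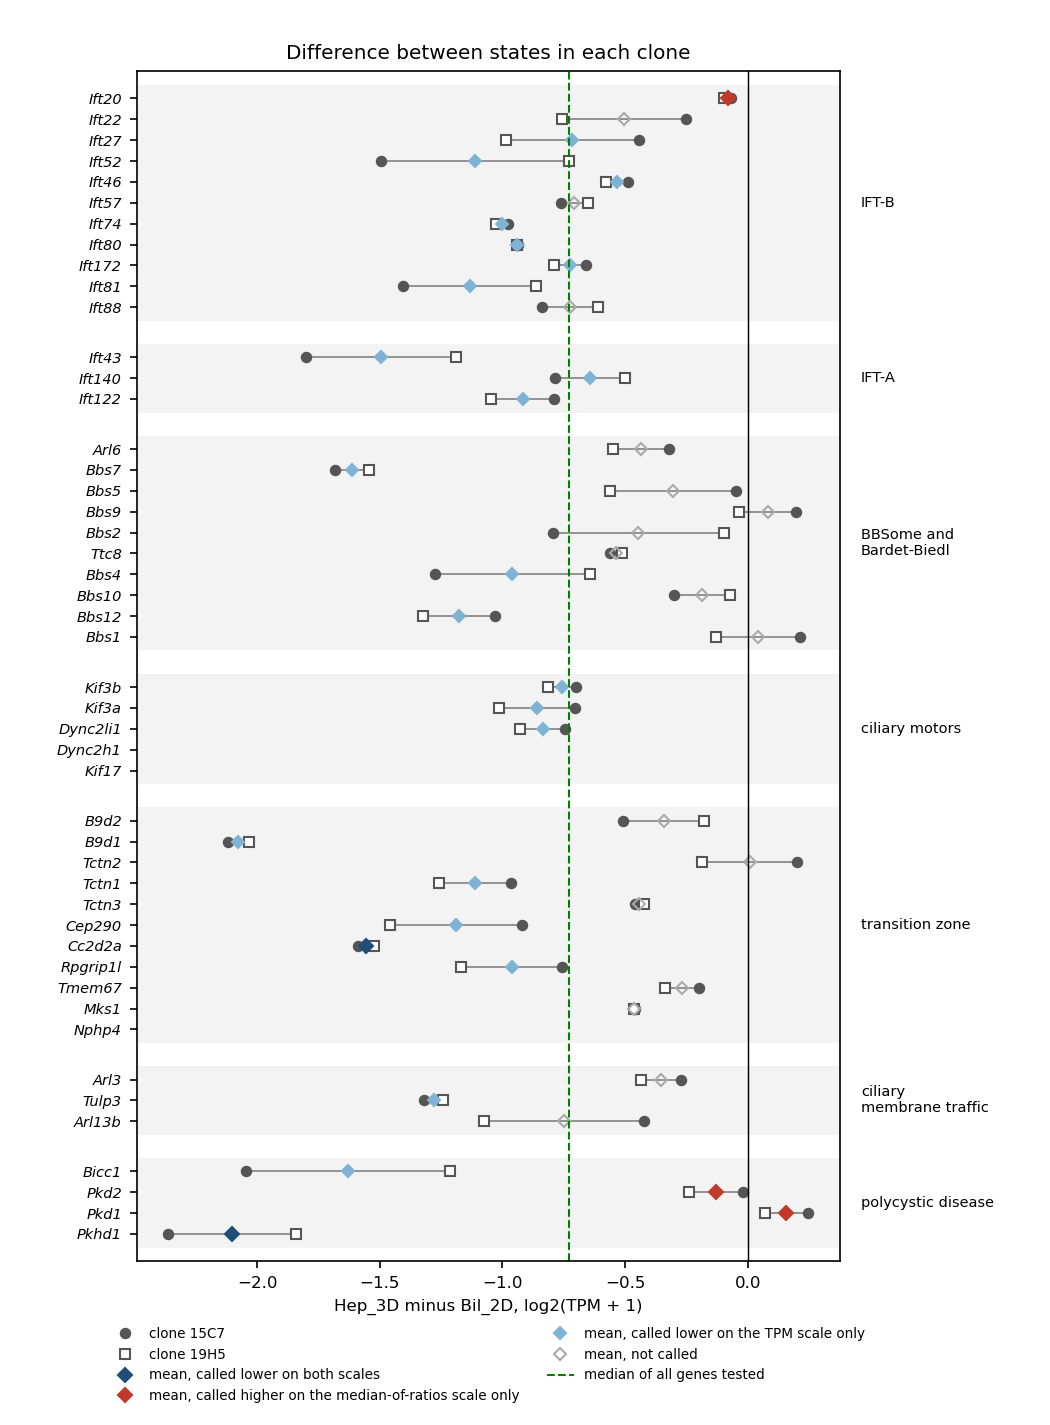
Hep_3D minus Bil_2D on log2(TPM + 1) for the 44 genes tested, in clone 15C7 (circles) and clone 19H5 (squares), with their mean (diamonds, coloured by call; the median-of-ratios scale in the legend is scaled TPM). The dashed line marks the median of all 12336 genes tested, -0.73, and the genes lie on both sides of it. Pkhd1 and B9d1 lie farthest to the left, at -2.10 and -2.08, and Pkd1 farthest to the right, at 0.16.

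The 4 polycystic disease genes split. Pkhd1 encodes fibrocystin, the ciliary membrane protein mutated in autosomal recessive polycystic kidney disease, in which bile ducts are also malformed (chromosome 1, 20057779 to 20618064, minus strand, GRCm38). It stood at 0.638 and 0.603 TPM in Hep_3D replicates 1 and 2, against 7.42 and 4.75 TPM in Bil_2D replicates 1 and 2. The groups did not overlap, and both clones showed the difference. The mean was 0.621 ± 0.0249 TPM in Hep_3D and 6.09 ± 1.89 TPM in Bil_2D (SD, n = 2 each), a Hep_3D to Bil_2D ratio of 0.102. Pkhd1 fell on both scales (log2 difference -2.10, SE 0.27, adjusted p = 0.00737 in limma on the TPM scale; -1.59, adjusted p = 0.0247 on scaled TPM). Pkhd1 reached the 1 TPM filter only through Bil_2D, where it is high, so a tested Pkhd1 had to differ. With no filter its adjusted p was 0.016 on the TPM scale and 0.0515 on scaled TPM, and over the 4 leave-outs it was 0.0389 to 0.0438 and 0.0865 to 0.126.

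Bicc1, an RNA-binding protein whose loss gives cystic kidneys in mice, was the most abundant of the 47 genes (chromosome 10, 70922832 to 71159700, minus strand). It stood at 55.7 and 89 TPM in Hep_3D replicates 1 and 2, against 233 and 207 TPM in Bil_2D replicates 1 and 2. The groups did not overlap on either scale, and the larger difference was in clone 15C7. Bicc1 fell on the TPM scale (log2 difference -1.63, SE 0.26, adjusted p = 0.0103 in limma) and missed the threshold on scaled TPM (-0.82, adjusted p = 0.105). Without Bil_2D replicate 1 or 2 its adjusted p on the TPM scale was 0.0617 and 0.0551.

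Pkd1 and Pkd2 encode polycystin-1 and polycystin-2, which form a receptor and channel complex of the ciliary membrane and are mutated in dominant polycystic kidney disease. Pkd1 stood at 5.87 and 4.99 TPM in Hep_3D replicates 1 and 2, against 4.79 and 4.7 TPM in Bil_2D replicates 1 and 2. Pkd2 stood at 24.8 and 21.9 TPM in Hep_3D replicates 1 and 2, against 25.2 and 26 TPM in Bil_2D replicates 1 and 2. On the TPM scale neither differed beyond its error (log2 differences 0.16 and -0.13, adjusted p = 0.5 and 0.474 in limma). Relative to the shared shift both rose (0.84 and 0.66 on scaled TPM, adjusted p = 0.0429 and 0.0432), with ranges over the leave-outs of 0.107 to 0.202 for Pkd1 and 0.114 to 0.194 for Pkd2. With the replicate block the adjusted p of Pkd2 was 0.0502. Exons of Pkd1 overlap those of Tsc2 on the opposite strand by 693 bases, and the library's strand setting is not given in the sources used here.

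**Figure D3:**
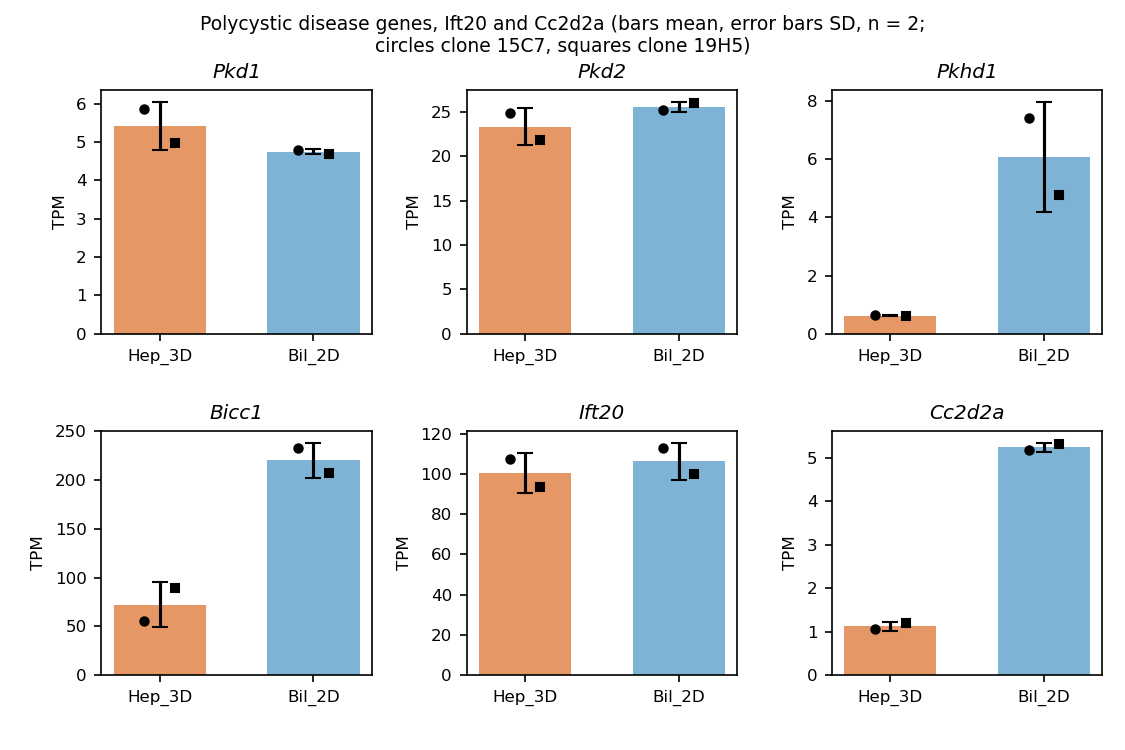
TPM of the 4 polycystic disease genes, Ift20 and Cc2d2a in each library (points), with the mean (bar) and SD (error bar) of 2 libraries, Hep_3D on the left of each panel. Pkhd1, Bicc1, Cc2d2a and, by a small margin, Pkd2 were lower in both Hep_3D libraries than in both Bil_2D libraries, and Pkd1 was higher. Pkd1, Pkd2 and Ift20 were not called on TPM.

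Promoters of ciliary genes often carry an X-box, the site bound by RFX transcription factors. The form GTTNCC followed after any 5 bases by AAC, searched on both strands, occurred in the promoters of 6 of the 41 cilium genes found in the RefSeq promoter table (14.6%; 250 bases before to 50 after each start) and of 1.56% of all 27025 genes. A stricter form, in which those 5 bases read NNGGN, lies within it and occurred in 3 of 41 (7.32%) and 0.529% of all genes. The shorter core GTTGCC, which many of these matches contain, occurred in 19 of 41 (46.3%) and 14.1% of all genes. The 6 matches and a core of Arl13b are shown, with the motif in capitals and the gene's own strand read from left to right.
Bbs7: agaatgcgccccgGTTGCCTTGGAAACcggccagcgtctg
Mks1: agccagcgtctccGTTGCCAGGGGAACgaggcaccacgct
Tctn1: ctaggctgtgactGTTGCCCGGGCAAC
Ift140: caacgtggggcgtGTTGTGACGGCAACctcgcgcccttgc
B9d1: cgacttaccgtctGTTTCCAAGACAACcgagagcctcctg
B9d2: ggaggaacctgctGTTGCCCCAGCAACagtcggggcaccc
Arl13b: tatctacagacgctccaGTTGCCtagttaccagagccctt

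These stretches lie at chr3:36613484-36613523 (Bbs7, minus strand), chr11:87853178-87853217 (Mks1, plus), chr5:122264411-122264437 (Tctn1, minus), chr17:25015956-25015995 (Ift140, plus), chr11:61505125-61505164 (B9d1, plus), chr7:25680783-25680822 (B9d2, plus) and chr16:62847199-62847238 (Arl13b, minus) in GRCm38.p6. The match began at -121, -24, 37, -117, -6 and 17 from the annotated start in Bbs7, Mks1, Tctn1, Ift140, B9d1 and B9d2, and the Arl13b core at -181. The Ift140 match reads on the opposite strand, and those of Bbs7, Mks1 and Tctn1 read on both. The 6 genes did not move as one: Bbs7, Tctn1, Ift140 and B9d1 fell on the TPM scale, and none of the 6 passed on scaled TPM, where their differences ran from -1.35 for B9d1 to 0.43 for B9d2.

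IFT-B trains carry tubulin and other cargo toward the tip. Of 11 IFT-B genes 7 fell on the TPM scale, beside 51.9% of all genes. On scaled TPM 1 rose, beside 11.9% of all genes, and the list median was -0.04. Ift20, the subunit that also sits at the Golgi and sorts ciliary membrane proteins, was the most abundant and departed most from the rest (chromosome 11, 78536361 to 78541737, plus strand). It stood at 107 and 93.5 TPM in Hep_3D replicates 1 and 2, against 113 and 99.9 TPM in Bil_2D replicates 1 and 2. The groups overlapped on the TPM scale (log2 difference -0.08, SE 0.15, adjusted p = 0.647 in limma). On scaled TPM they did not overlap, with 140 and 126 scaled units in Hep_3D against 82.8 and 77.3 in Bil_2D (0.73, adjusted p = 0.0306). That adjusted p was 0.0886 to 0.167 over the leave-outs.

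Most other IFT-B subunits stood near the shared shift or below it. Ift81, which with Ift74 binds tubulin, had the most negative scaled-TPM difference of the train. Its level was 2.19 and 3.11 TPM in Hep_3D replicates 1 and 2, against 7.44 and 6.49 TPM in Bil_2D replicates 1 and 2 (-1.13, adjusted p = 0.0166 on the TPM scale; -0.48, adjusted p = 0.21 on scaled TPM). Ift74 stood at 4.18 and 3.85 TPM in Hep_3D, against 9.22 and 8.87 TPM in Bil_2D. Ift80 stood at 3.48 and 3.54 TPM in Hep_3D, against 7.57 and 7.73 TPM in Bil_2D. Neither pair of groups overlapped on either scale, and both genes fell on the TPM scale only (adjusted p = 0.0121 and 0.014 in limma).

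Ift88, whose mutation in the mouse gives polycystic kidneys and loss of cilia, missed the threshold on both scales. It stood at 2.3 and 3.3 TPM in Hep_3D replicates 1 and 2, against 4.9 and 5.56 TPM in Bil_2D replicates 1 and 2 (adjusted p = 0.0527 and 0.841 on TPM and scaled TPM), and passed on TPM with the replicate block (0.0359). Ift172, which links the train to its turnaround at the tip, had 3.53 and 3.85 TPM in Hep_3D, against 6.15 and 7.39 TPM in Bil_2D, and Ift52, a core scaffold, had 7.66 and 13.6 TPM against 23.4 and 23.3 TPM. Both fell on the TPM scale (adjusted p = 0.035 and 0.0337), with scaled-TPM differences of -0.04 and -0.35. Ift27, a Rab-like GTPase of the train, had 19.1 and 13.9 TPM in Hep_3D, against 26.4 and 28.6 TPM in Bil_2D, and Ift46 had 13.4 and 11.8 TPM against 19.2 and 18.1 TPM. Their scaled-TPM differences were 0.06 and 0.23. Ift22, the other Rab-like subunit, and Ift57 were called on neither scale, but Ift57 passed on TPM with the replicate block (adjusted p = 0.0255, against 0.21 without it). Ift57 differed by 0.81 between clones (log2, 19H5 minus 15C7) and by -0.71 between states, with 4.75 and 9.48 TPM in Hep_3D replicates 1 and 2 and 8.75 and 15.5 TPM in Bil_2D replicates 1 and 2.

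IFT-A trains return material to the base and admit membrane proteins. All 3 IFT-A genes fell on the TPM scale, beside 51.9% of all genes. In limma 0 passed on scaled TPM, where 1 was lower at an unadjusted p under 0.05, beside 2369 of all 12336 genes tested. Ift43 stood at 12.6 and 17.4 TPM in Hep_3D replicates 1 and 2, against 46.4 and 40.9 TPM in Bil_2D replicates 1 and 2 (log2 difference -1.50, SE 0.21, adjusted p = 0.00812; -0.71, adjusted p = 0.0854 on scaled TPM). The groups did not overlap on either scale, and the TPM-scale call was lost without Bil_2D replicate 1 (adjusted p = 0.0537). Ift140 had 3.58 and 4.28 TPM in Hep_3D, against 6.89 and 6.46 TPM in Bil_2D, and Ift122 had 3.58 and 3.12 TPM against 6.92 and 7.49 TPM. Their differences on scaled TPM were 0.04 for Ift140 and -0.24 for Ift122.

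BBSome and Bardet-Biedl genes lay on both sides of the shared shift. Of 10, 3 fell on the TPM scale (Bbs4, Bbs7 and Bbs12), beside 51.9% of all genes. In limma 0 passed on scaled TPM, where the list median was 0.23. At an unadjusted p under 0.05, 1 was higher and 2 lower there, beside 2463 and 2369 of all 12336 genes tested. Bbs7, a BBSome subunit, stood at 2.55 and 3.67 TPM in Hep_3D replicates 1 and 2, against 10.4 and 12.6 TPM in Bil_2D replicates 1 and 2. The groups did not overlap on either scale (log2 difference -1.61, SE 0.23, adjusted p = 0.00866 in limma; -0.92, adjusted p = 0.0712 on scaled TPM). The scaled value passed with the replicate block (adjusted p = 0.0389), and the TPM-scale call was lost without Bil_2D replicate 2 (0.0561). Its promoter holds the strict X-box form printed above.

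At the other end stood Bbs9, a BBSome scaffold, with 5.63 and 4.14 TPM in Hep_3D replicates 1 and 2, against 4.77 and 4.27 TPM in Bil_2D replicates 1 and 2. It was called on neither scale (0.08, adjusted p = 0.769; 0.75, adjusted p = 0.0732 on scaled TPM). Bbs1, another BBSome subunit, was low throughout, with 1.34 and 1.31 TPM in Hep_3D, against 1.02 and 1.52 TPM in Bil_2D. Arl6, the small GTPase that recruits the BBSome to membranes, was the most abundant of the 10, with 5.71 and 7.09 TPM in Hep_3D, against 7.38 and 10.8 TPM in Bil_2D (adjusted p = 0.2 on the TPM scale). Bbs12, a chaperonin-like protein that helps assemble the BBSome, had 0.576 and 0.637 TPM in Hep_3D, against 2.22 and 3.1 TPM in Bil_2D, and Bbs4 had 1.16 and 1.7 TPM against 4.23 and 3.23 TPM. Both fell on the TPM scale (adjusted p = 0.0173 and 0.0312) and lost the call in each of the 4 leave-outs. Bbs2, Bbs5, Bbs10 and Ttc8 were called on neither scale, with scaled-TPM differences of 0.17, 0.37, 0.32 and 0.08.

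Of the 5 motor genes 3 were tested, and these fell on the TPM scale close to the shared shift, as did 51.9% of all genes tested. Kif3b, a motor subunit of the kinesin that drives outward transport, had 13.1 and 12 TPM in Hep_3D replicates 1 and 2, against 21.8 and 21.8 TPM in Bil_2D replicates 1 and 2. Its partner Kif3a had 6.05 and 4.81 TPM in Hep_3D, against 10.5 and 10.7 TPM in Bil_2D. Dync2li1, the light intermediate chain of the return dynein, had 4.43 and 5.57 TPM in Hep_3D, against 8.1 and 11.5 TPM in Bil_2D. Their log2 differences were -0.76, -0.86 and -0.84 on the TPM scale (adjusted p = 0.0154, 0.021 and 0.0437 in limma) and 0.01, -0.14 and -0.12 on scaled TPM. Dync2h1, the heavy chain of that dynein, did not reach the filter at 0.659 and 0.466 TPM in Hep_3D, against 1.43 and 0.882 TPM in Bil_2D. Kif17, a motor best known from neurons and photoreceptors, was at 0.13 and 0.0934 TPM in Hep_3D, against 0.0879 and 0.0783 TPM in Bil_2D.

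The transition zone held the second gene that was lower on both scales. Of its 11 genes, Cc2d2a, B9d1, Tctn1, Cep290 and Rpgrip1l fell on the TPM scale, beside 51.9% of all genes, and Nphp4 was not tested. Cc2d2a, a component of the tectonic complex mutated in Meckel and Joubert syndromes (chromosome 5, 43662346 to 43740972, plus strand), stood at 1.05 and 1.19 TPM in Hep_3D replicates 1 and 2, against 5.17 and 5.31 TPM in Bil_2D replicates 1 and 2. The groups did not overlap, and the 2 clones gave nearly the same values. The mean was 1.12 ± 0.102 TPM in Hep_3D and 5.24 ± 0.102 TPM in Bil_2D (SD, n = 2 each; log2 difference -1.56, SE 0.20, adjusted p = 0.00722 in limma; -0.99, adjusted p = 0.0382 on scaled TPM). Its adjusted p was 0.0359 to 0.0475 over the leave-outs on the TPM scale and 0.0939 to 0.193 on scaled TPM, where it was 0.0808 with no filter.

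B9d1, a member of the B9 complex of the same gate, had the largest fall of the zone. It stood at 2.98 and 5.98 TPM in Hep_3D replicates 1 and 2, against 16.3 and 27.6 TPM in Bil_2D replicates 1 and 2. Its level was thus higher in clone 19H5 in both states. The difference between states was -2.12 in clone 15C7 and -2.035 in clone 19H5 on log2(TPM + 1). Over both clones it was -2.08 on the TPM scale (SE 0.40, adjusted p = 0.0155 in limma) and -1.35 on scaled TPM (adjusted p = 0.0973, or 0.0207 with the replicate block). The TPM-scale call was lost without Hep_3D replicate 1 (0.0596) and without Bil_2D replicate 2 (0.0729). B9d2, of the same complex, was the most abundant gene of the zone and was not called, with 14.2 and 20.9 TPM in Hep_3D, against 20.6 and 23.8 TPM in Bil_2D (-0.34 and 0.43 on TPM and scaled TPM).

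The 3 tectonics, membrane-associated proteins of the gate, stood at -0.50, 0.73 and 0.19 on scaled TPM (Tctn1, Tctn2 and Tctn3), and none passed there. Tctn1 had 1.85 and 2 TPM in Hep_3D, against 4.57 and 6.17 TPM in Bil_2D, and fell on the TPM scale (-1.11, adjusted p = 0.0174). Tctn2 had 7.71 and 8.05 TPM in Hep_3D, against 6.57 and 9.29 TPM in Bil_2D (0.01 on the TPM scale, adjusted p = 0.975; adjusted p = 0.0956 on scaled TPM). Tctn3 had 2.69 and 3 TPM in Hep_3D, against 4.08 and 4.36 TPM in Bil_2D, and was called on neither scale. Cep290, the protein that links membrane and microtubules in the gate, had 2.06 and 1.33 TPM in Hep_3D, against 4.79 and 5.4 TPM in Bil_2D, and Rpgrip1l, a scaffold at the base of the zone, had 1.69 and 1.28 TPM against 3.54 and 4.12 TPM. Both fell on the TPM scale only (adjusted p = 0.0165 and 0.0228). Mks1 and Tmem67, both mutated in Meckel syndrome, were low and not called: Mks1 had 1.51 and 0.689 TPM in Hep_3D, against 2.45 and 1.33 TPM in Bil_2D, and Tmem67 had 2.19 and 1.49 TPM against 2.65 and 2.14 TPM. Nphp4, a nephronophthisis protein, had 0.49 TPM in Hep_3D replicate 1 and 0.39 TPM in Bil_2D replicate 1 and was listed at 0 in both 19H5 libraries, which can be a failed estimate.

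Of the 3 genes of ciliary membrane traffic, 1 fell on the TPM scale, beside 51.9% of all genes. Tulp3, the adaptor through which IFT-A brings receptors into the cilium, had 9.32 and 9.47 TPM in Hep_3D replicates 1 and 2, against 24.8 and 23.7 TPM in Bil_2D replicates 1 and 2 (log2 difference -1.28, SE 0.14, adjusted p = 0.00625 in limma). On scaled TPM its difference was -0.52 and missed the threshold (adjusted p = 0.071). Arl3, a GTPase that releases lipid-modified cargo in the cilium, had 60.5 and 64.1 TPM in Hep_3D, against 73.2 and 87.1 TPM in Bil_2D. Arl13b, the GTPase used to stain the ciliary membrane and the activator of Arl3, had 3.75 and 2.31 TPM in Hep_3D, against 5.37 and 5.97 TPM in Bil_2D. Neither was called (adjusted p = 0.0985 and 0.0641 on the TPM scale; 0.127 and 0.816 on scaled TPM, where the differences were 0.45 and -0.10).

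The clones were compared as 19H5 minus 15C7 with state as a term in the model. In limma 0 of the 44 genes differed at an adjusted p under 0.05 and 3 at an unadjusted p under 0.05 (Ift57, B9d1 and Mks1), while 0% of all genes passed and 13% had an unadjusted p under 0.05. On scaled TPM the member counts were 0 and 2, while 0% of all genes passed and 12.4% had an unadjusted p under 0.05. The log2 difference was 0.81 for Ift57, 0.77 for B9d1 and -0.57 for Mks1. Set against that, 40 of the 44 genes were lower in Hep_3D than in Bil_2D in both clones on the TPM scale (90.9%, beside 77.5% of all genes). On scaled TPM 16 were higher in both clones (36.4%, beside 40.4% of all genes), 17 lower in both (38.6%, beside 41.9%) and 11 mixed (25%, beside 17.4%).

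Other genes of the cilium and of cell division were taken from 13 lists, with 168 symbols in the table. Of 123 tested, 2 were higher and 78 lower on the TPM scale (63.4%, beside 51.9% of all genes), and 5 were higher and 20 lower on scaled TPM (4.07% and 16.3%, beside 11.9% and 9.54%). Proliferation and disassembly genes made up 13 of those 20. The shares of all genes just given also stand beside each count by list below. In the other IFT subunits 3 of 9 fell on the TPM scale, among them Wdr35 and Ttc21b of IFT-A (-1.68 and -1.28 on TPM). Of 7 other BBSome genes and regulators 5 fell on the TPM scale, with Rab3ip at -1.32 and Trim32 at -0.88. Of 10 other motor subunits 8 fell on the TPM scale and 1 on scaled TPM. That one was Kif3c, a kinesin-2 subunit, with 3.07 and 4.28 TPM in Hep_3D, against 18.9 and 20.4 TPM in Bil_2D, and next to it stood Dynlt1b (-0.60 on scaled TPM, adjusted p = 0.0501).

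Of 13 other transition zone and nephronophthisis genes 7 fell on the TPM scale and 0 passed on scaled TPM in limma. At an unadjusted p under 0.05, 3 were higher on scaled TPM, beside 2463 of all 12336 genes tested. Tmem231 and Tmem138 had the largest falls (-1.31 and -1.07 on the TPM scale). Invs, which works in the segment above the gate, had 3.46 and 3.85 TPM in Hep_3D, against 2.9 and 3.9 TPM in Bil_2D, and was not called (adjusted p = 0.742 on the TPM scale and 0.093 on scaled TPM). Of 16 basal body and distal appendage genes 11 fell on the TPM scale and 1, Odf2, on both (-1.77, and -1.01 with adjusted p = 0.0481 on scaled TPM), while Cep89 stood at -0.83 on that scale (adjusted p = 0.0539). Odf2, a subdistal and distal appendage protein, had 6.49 and 6.92 TPM in Hep_3D, against 21.5 and 29.5 TPM in Bil_2D.

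Other membrane traffic genes gave 1 rise and 8 falls of 13 on the TPM scale, and 1 and 2 on scaled TPM. Rab11a, of the recycling endosome that feeds the growing cilium, had 48.4 and 58.9 TPM in Hep_3D, against 218 and 219 TPM in Bil_2D (-2.01 and -1.20, adjusted p = 0.00446 and 0.018). Rab29 had 20.6 and 22.3 TPM in Hep_3D, against 14.8 and 14.9 TPM in Bil_2D (0.50 and 1.27, adjusted p = 0.0417 and 0.0139). Efcab7, which reached the filter only through Bil_2D, had 0.142 and 0.423 TPM in Hep_3D, against 1.45 and 2.83 TPM in Bil_2D.

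Other polycystic liver and kidney disease genes gave calls in both directions. Of 14 tested, 1 rose and 7 fell on the TPM scale, and 3 rose and 2 fell on scaled TPM. Of those that rose on scaled TPM, Dnajb11, a chaperone cofactor, had 151 and 147 TPM in Hep_3D, against 90.6 and 92.5 TPM in Bil_2D (1.51 on scaled TPM, adjusted p = 0.0065), and the translocon genes Sec63 and Sec61a1 stood at 0.90 and 0.72 (adjusted p = 0.0229 and 0.0393). Prkcsh, the glucosidase subunit mutated in polycystic liver disease, had 223 and 232 TPM in Hep_3D, against 301 and 276 TPM in Bil_2D, and was not called (0.47 on scaled TPM, adjusted p = 0.0642). Among those that fell on both scales was Dzip1l, a basal body protein of recessive polycystic kidney disease, with 2.82 and 3.5 TPM in Hep_3D, against 14.8 and 24.1 TPM in Bil_2D (-2.27 and -1.56, adjusted p = 0.00735 and 0.0373).

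Of 14 genes of Hedgehog signalling, which needs the cilium in vertebrates, 5 were tested, 2 fell on the TPM scale and 1 rose on scaled TPM. Smo, the signal transducer that enters the cilium, had 11.4 and 9.81 TPM in Hep_3D, against 28.8 and 17.9 TPM in Bil_2D (-1.04, adjusted p = 0.0331; -0.27, adjusted p = 0.469), and Sufu, an inhibitor of the pathway, stood at -1.20 and -0.47. Ptch1, receptor and target gene, had 8.64 and 6.91 TPM in Hep_3D, against 7.01 and 4.13 TPM in Bil_2D. Its groups overlapped on TPM, where it was not called in limma (0.45, adjusted p = 0.244), and it rose on scaled TPM only (1.15, adjusted p = 0.049). Gli2 and Hhip were listed at 0 in every library, and Gli1 reached at most 0.0217 TPM.

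Of 10 RFX and motile cilium regulators 4 were tested, 3 fell on the TPM scale and 1, Rfx5, on both (-1.53 and -0.82, adjusted p = 0.0061 and 0.04). Rfx5 is known for regulating MHC class II genes rather than cilia. Rfx3, a main regulator of ciliary genes in the mouse, had 0.9 and 0.782 TPM in Hep_3D, against 1.62 and 1.61 TPM in Bil_2D (adjusted p = 0.101 and 0.844 in limma). Rfx3 reached the filter through Bil_2D alone, which bears on its being lower. Rfx1 had 5.92 and 6.23 TPM in Hep_3D, against 11.4 and 10.2 TPM in Bil_2D (-0.74 and -0.01). Rfx7 stood at -1.14 and -0.40, Rfx2 at 0.463 and 0.961 TPM in Hep_3D, against 0.959 and 1.29 TPM in Bil_2D. Foxj1, the switch for motile cilia, was at 0.35 and 0.313 TPM in Hep_3D, against 1.46 and 0.54 TPM in Bil_2D. Among 16 motile cilium genes only 2 reached the filter and 0 were called on either scale in limma (0 also at an unadjusted p under 0.05). Receptors and signalling proteins of the cholangiocyte cilium were also sparse, with 3 of 12 tested. Adcy6 had 17.9 and 27.1 TPM in Hep_3D, against 56 and 42.7 TPM in Bil_2D (-1.12 and -0.32 on TPM and scaled TPM, adjusted p = 0.0258 and 0.432). Trpv4 and Adcy8 went the other way and were not called in limma. On TPM they stood at 0.49 and 0.39 (adjusted p = 0.173 and 0.51), and on scaled TPM at 0.89 and 0.73 (adjusted p = 0.0768 and 0.331). Trpv4 reached the filter through Hep_3D alone. Gpbar1 was listed at 0 in every library and Sctr reached at most 0.0885 TPM.

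Proliferation genes had larger differences between the states. Cells take down their cilium before they divide. All 13 proliferation genes fell on the TPM scale and 10 on scaled TPM, beside 51.9% and 9.54% of all genes. The list median on scaled TPM was -2.46, with Rrm2 at -3.27 and Ccnb1 at -3.24. Summed over the 13, the level was 161 and 89.9 TPM in Hep_3D replicates 1 and 2, against 865 and 1063 TPM in Bil_2D replicates 1 and 2. Of 14 genes of cilium disassembly and suppression 10 fell on the TPM scale and 3 on scaled TPM (median -0.56). Cenpf of the proliferation list and Kif24 of the disassembly list reached the filter through Bil_2D alone, which bears on their being lower. Plk1 had 8.6 and 2.7 TPM in Hep_3D, against 60.8 and 65.5 TPM in Bil_2D, and Nek2 had 6.34 and 2.4 TPM against 34.4 and 38.4 TPM; both are mitotic kinases. The part of proliferation in the differences of Pkhd1, Cc2d2a and the other cilium genes was not tested. The remaining marker lists held few expressed genes: 1 of 8 endothelial markers, 3 of 8 macrophage and leukocyte markers and 1 of 6 mesothelial markers reached the filter. That mesothelial gene, Msln, had 2.76 and 9.92 TPM in Hep_3D, against 324 and 828 TPM in Bil_2D. Of the macrophage markers, Cd14 had 491 and 483 TPM in Hep_3D, against 129 and 213 TPM in Bil_2D, and rose on both scales. Cd68 went the other way, with 0.674 and 1.74 TPM in Hep_3D, against 4.5 and 11.7 TPM in Bil_2D, and fell on TPM, and with the replicate block on scaled TPM too. Lyve1, Cd3e and Upk3b were listed at 0 in every library.

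**Figure D4:**
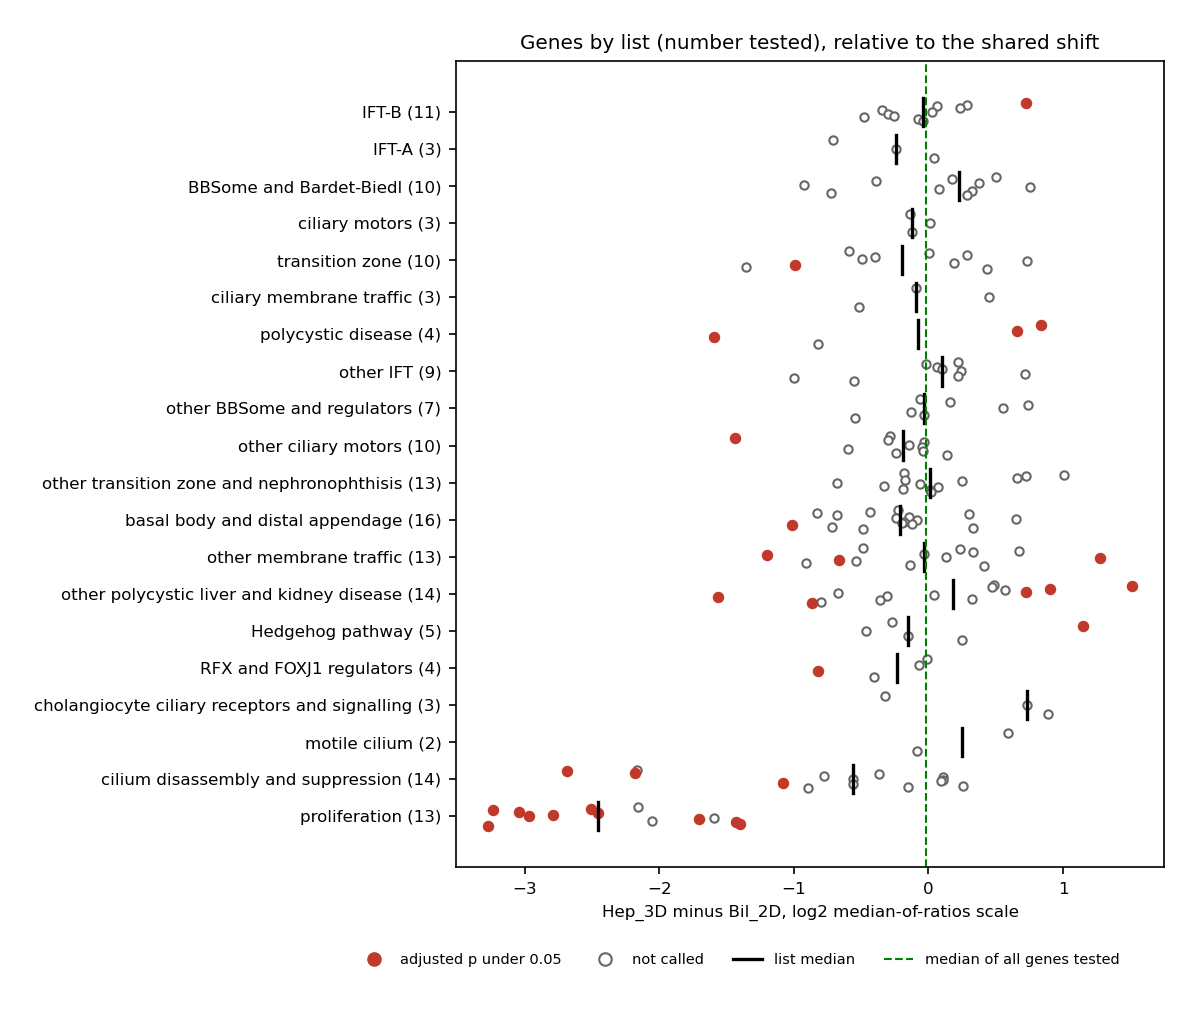
Hep_3D minus Bil_2D on the log2 scale of scaled TPM (TPM over median-of-ratios size factors) for each gene tested, by list, with the number tested in brackets, the list median as a black bar and the median of all genes as a dashed line. Filled points have an adjusted p under 0.05. The medians of the 7 member lists lie between -0.24 and 0.23, and that of the proliferation list lies at -2.46.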

How the data were processed

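The labels' protocols name Qiagen RNeasy extraction of total RNA and library construction at Novogene. The authors deposited TPM by gene symbol for the 4 libraries. Salmon, DESeq2 and the mm10 build appear in the submitters' processing notes without versions or roles, and the transcript annotation is not given in the sources used here. TPM keeps no depth and cannot be turned back into reads, so no count model was fitted.

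Groups and clones came from the sample labels. The 12336 genes that reached 1 TPM in 2 or more of the 4 libraries entered limma 3.58.1 (R 4.3.3) as log2(TPM + 1), using eBayes with a trend (prior degrees of freedom 2.29, residual 2). Benjamini-Hochberg adjustment ran over all 12336, and a gene was called when that value was under 0.05. Differences of low genes are understated by the added 1. Scaled TPM is TPM over median-of-ratios size factors, computed from genes that reached 1 TPM in all 4 libraries. The clone fit had state as a term and 1 residual degree of freedom. With 2 libraries a group, the smallest two-sided p of an exact permutation test is 0.333, so none was used.

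Same-numbered libraries share a clone, per the labels, and across all genes their deviations from the group means correlated at 0.414 (0.325 over the 44 cilium genes tested). The main fit has no clone term, and clone as a replicate block was an alternative. Members and lists were chosen with earlier results of these data known. Full values were due, by rule, for the 4 polycystic genes, Arl13b and, per group, the most abundant member and those with the largest rise and fall on scaled TPM. From each other list up to 2 genes a direction were named, those with the largest scaled-TPM difference among genes called on either scale, with a set of regulators and disease genes. Some genes and a motif that the rule covers are not reported here. Sec61a1, Hhip, Gli1, Trpv4, Adcy8, Gpbar1, Sctr, Cenpf, Kif24, Lyve1, Cd3e, Upk3b and the cell type markers were named after their values were seen.

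Coordinates are from GENCODE M21 (GRCm38, the assembly of mm10) and promoters from RefSeq (GRCm38.p6), where 41 of 47 members matched. Exons of 7 of the 47 genes overlap those of another protein-coding gene, 6 on the opposite strand (Bbs12, Bbs4, Cep290, Pkd1, Tctn1 and Tmem67) and 1 on the same (Kif17), so reads there may be shared.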

Additional observations from a re-analysis of the deposited data

Results flagged for a closer look

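In 3 of the 44 cilium genes tested the library pair of one clone moved up and that of the other moved down on log2(TPM + 1). The Hep_3D minus Bil_2D difference of Bbs1 was 0.21 in clone 15C7 and -0.13 in clone 19H5. For Bbs9 it was 0.20 in clone 15C7 and -0.036 in clone 19H5, and for Tctn2 0.20 and -0.19 in the same order of clones. Each clone gave 1 library per state, so the difference between clones was not tested, and on scaled TPM all 3 genes were higher in Hep_3D in both clones.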

How the results depend on the processing

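On the TPM scale 24 genes were lower and 0 higher in Hep_3D. The lower count was 13 with a minimum log2 fold change of 1, 2 after quantile normalization (with 1 higher), 5 with the 50 most abundant genes left out, and 4 to 10 as each library was left out. Pseudocounts of 0.1 and 5, no filter, a filter of 5 TPM, eBayes without trend or robust, and the replicate block kept that count within 1.5 times (16 to 26, with 26 under the replicate block). On scaled TPM 3 were higher and 2 lower. Without a filter these were 1 and 0, with a filter of 5 TPM the lower count was 0, with a minimum log2 fold change of 1 they were 0 and 1, with the replicate block the lower count was 4, and with any library left out both were 0. Of the 24 genes called on TPM, 1 changed sign: Ift46 stood at 0.15 after quantile normalization (adjusted p = 0.483). Of all 44 tested, 15 changed sign under at least 1 alternative on TPM, 12 of them after quantile normalization, and 11 on scaled TPM, of which 0 were called there. The cause of these changes was not tested. The clone comparison gave 0 genes under its 6 alternatives (limma), and it could not be fitted with a library left out, since no residual degrees of freedom remained. Depth is unknown, and levels near 1 TPM carry an unknown counting error.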
